A study of Mus musculus with 122 samples.

Results

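CTCFL-only sites away from promoters are places on the mouse genome where the FLAG-tagged germline protein CTCFL was recovered and no annotated transcript starts nearby. FLAG-tagged CTCF had no site there, with peaks in both replicates, in cells depleted of endogenous CTCF. Single replicates and other CTCF libraries did have peaks at some of them. The sites were chosen by measured values in 4 FLAG ChIP-seq peak lists. Peaks of both replicates of Dox-treated CTCFL cells were merged where they overlapped by 1 bp, and a region with peaks from each replicate was called a CTCFL D site. It was kept when no CTCF ID site, made in the same way, touched it by 1 bp and its middle lay over 1 kb from every GENCODE start. Of 22294 CTCFL D sites on chromosomes 1 to 19 and X, 4239 (19.0%) met the rule. They were set beside 11400 CTCFL D sites away from promoters that a CTCF ID site did touch (shared distal sites) and 3928 CTCFL-only sites within 1 kb of a start (CTCFL-only promoter sites).

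All lines derive from E14Tg2a, a male mouse embryonic stem cell line of 129/Ola background, and all carry CTCF fused to an auxin-inducible degron with eGFP, the Tir1 adaptor that the degron needs, and a transgene at the Tigre locus with an N-terminal FLAG tag and a C-terminal mRuby2. Dox (1 µg/ml, D) switches the transgene on, and 500 µM of the auxin analog IAA with Dox (ID) also degrades endogenous CTCF, while U is untreated and I is IAA alone. The transgenes are CTCF, CTCFL and 4 chimeras named by the origin of the N terminus, zinc fingers and C terminus, so that LCL has the zinc fingers of CTCF between the ends of CTCFL, and CLC, CLL and LLC have the zinc fingers of CTCFL. FLAG libraries are labelled 24 h, except those of CLL, LLC and the RNase A and mock-treated cells, which are labelled 48 h, and the protocol gives 48 h for all ChIP-seq, so that time and line cannot be told apart for CLL and LLC. Each line is a clone with a Dox-driven transgene, and nothing states that replicates are separate cultures, so tests over libraries measure the spread between these libraries, which may be technical.

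CTCF is the zinc finger protein at which loop extrusion by cohesin halts, and RAD21 is a subunit of cohesin. CTCFL (BORIS) is its paralog, normally made in male germ cells and switched on in some cancers, with closely similar zinc fingers and unrelated ends. CTCFL is known for sites at active promoters. The sites described here lie elsewhere.

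Sequences at 7 of the sites show the kinds of DNA found among them, in windows of 121 bp around the summit of the stronger replicate (GRCm38, plus strand). Strong sites with a match to the CTCF core consensus come first, with the match in capitals, since that is the usual target of the zinc fingers. The core consensus is the 14-base centre of the CTCF motif, searched on both strands with at most 2 mismatches within 50 bp of the summit.
Gal3st1 intron site, chr11:3992437-3992557: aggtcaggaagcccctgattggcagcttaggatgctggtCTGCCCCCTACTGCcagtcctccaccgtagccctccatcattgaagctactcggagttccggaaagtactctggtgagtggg
2010300C02Rik intron site, chr1:37675582-37675702: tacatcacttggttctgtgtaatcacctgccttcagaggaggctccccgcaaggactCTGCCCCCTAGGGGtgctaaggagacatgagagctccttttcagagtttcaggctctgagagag
Trp73 intron site, chr4:154070925-154071045: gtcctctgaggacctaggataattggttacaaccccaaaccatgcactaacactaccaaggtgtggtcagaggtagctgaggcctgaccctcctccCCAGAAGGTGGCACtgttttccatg
The strongest members without such a match within 50 bp include the strongest of all by the weaker replicate. The last 15 letters of the Shank2 window hold a match with 1 mismatch that lies beyond 50 bp from the summit.
Intergenic site whose nearest protein-coding start is Rbx1, chr15:81514375-81514495: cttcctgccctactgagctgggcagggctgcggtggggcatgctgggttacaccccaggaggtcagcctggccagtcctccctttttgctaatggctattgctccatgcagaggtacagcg
Shank2 intron site, chr7:144081240-144081360: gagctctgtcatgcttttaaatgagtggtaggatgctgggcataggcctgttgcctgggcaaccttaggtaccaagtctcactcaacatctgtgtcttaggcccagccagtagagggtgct
Another kind is made of runs of CA or TG, with the letters inside CA/TG words in capitals, a word being CACA, its shift by 1 base or the complement of either. The examples are the CA/TG-rich members with a peak in the most FLAG lists.
Intergenic site near Helt, chr8:46273092-46273212: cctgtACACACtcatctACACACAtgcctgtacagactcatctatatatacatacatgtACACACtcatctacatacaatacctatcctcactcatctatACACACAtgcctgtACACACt
Dsp intron site, chr13:38161390-38161510: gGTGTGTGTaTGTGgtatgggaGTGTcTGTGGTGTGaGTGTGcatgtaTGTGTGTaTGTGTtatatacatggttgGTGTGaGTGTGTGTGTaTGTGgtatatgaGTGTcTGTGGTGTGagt

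The members were weaker than the sites shared with CTCF, and a minority of them reached the strength of a typical shared site. Their median −log10 q, the caller's measure of how far a peak stands above background, was 9.99 in replicate 1 and 6.21 in replicate 2 of CTCFL D, against 18.4 and 11.5 at shared distal sites. Median fold enrichment was 4.75 and 4.60 in the replicates, against 5.79 and 5.64. In replicate 1, 19.5% of members reached the median of the shared distal sites. Median width was 567 bp against 780 bp. CTCFL-only promoter sites were near the members in median −log10 q (11.5 and 7.04) and fold enrichment (4.74 and 4.63), and wider (761 bp). These values chose the sites and are given as a description.

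The strongest members lay in or near genes of varied function. The site in an intron of Gal3st1, which encodes a sulfotransferase that makes sulfated glycolipids, spanned chr11:3991776-3993182 and had a −log10 q of 76.9 and 59.5. The intergenic site at chr15:81513808-81515227, 40896 bp from the start of Rbx1, a subunit of cullin ubiquitin ligases, had 74.9 and 61.1. The others of the 10 strongest lay in introns of Shank2 (a synaptic scaffold), 2010300C02Rik, Rasgef1a (a Ras exchange factor), Trp73 (a p53 relative), Kcnab2 (a potassium channel subunit) and Tnfrsf22 (a TNF receptor family member), and between genes near Klf7 (a zinc finger transcription factor) and Slc30a1 (a zinc exporter). All 10 had a peak in both replicates of CTCFL ID and of CLL ID, and each also had a peak in at least 1 of the 8 CTCF lists (D, ID, ID mock and ID RNase). At the edge of the rule, the sites in Cog1 and Cry2 lay 1001 bp from a start and were kept, and those by Lrrk2, Gm48565 and AC132288.2 lay 995, 996 and 999 bp away and were not.

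The members were spread over genes and the space between them. Of the 4239, 49.6% had their middle in an intron, 9.77% in an exon and 40.7% between genes, close to the shared distal sites, at 47.1%, 7.39% and 45.6%. The median distance to the nearest start was 8400 bp (interquartile range 3590 to 19500 bp), and 7.45% were beyond 50 kb. The median was 13987 bp when the rule used protein-coding starts alone. A protein-coding gene held 53.2% of the middles. The nearest other member was a median of 88289 bp away, while the nearest CTCF ID site was 14725 bp away. Members made up between 14.3% (chromosome 19) and 24.8% (chromosome 1) of the CTCFL D sites of a chromosome.

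Within this set, 727 members (17.2%) had summits in CA/TG repeats, and they stood apart from the rest in many libraries. They were taken as the members with at least 30% of the 201 bp around the summit inside such CA/TG words, a limit chosen after the values were seen, so no test was made on them. Such windows made up 1.01% of 289577 windows of chromosome 19, 4.52% of shared distal sites and 1.27% of CTCFL-only promoter sites. A median of 55.7% of their bases lay in these words, and they held a median GC content of 39.3% and a median of 0 CpG. Their bases were almost wholly soft-masked as repeats (median 100%, interquartile range 91.5% to 100%). They were narrow, at a median of 371 bp, and weak, with a median −log10 q of 5.99 and 4.99, against 11.2 and 6.76 for the other 3512 members.

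CA/TG-rich members had peaks in more of the other FLAG lists, and in more RAD21 lists, than the other members did. The median CA/TG-rich member had a peak in 19 of the 28 other FLAG lists and in 5 of the 16 RAD21 lists, against 5 and 0 for the other members. Some RAD21 list had a peak at 93.0% of them, against 14.7% of the others. The intergenic site near Helt, a helix-loop-helix repressor of neural cells, had a peak in all 28 other FLAG lists and in 10 RAD21 lists, and the site in Dsp, which encodes desmoplakin, in 28 and 7. The change came between 20% and 40% of bases in CA/TG words. Members with 0 to 10% and 10 to 20% had a peak in a median of 5 FLAG lists, those with 20 to 30% in 6, those with 30 to 40% in 15 and those above 60% in 20.

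**Figure D1:**
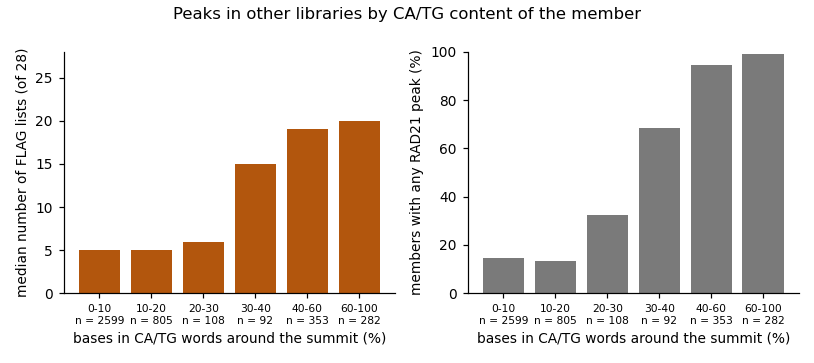
Median number of the 28 other FLAG lists with a peak (left) and share of members with a peak in any RAD21 list (right), by the percent of bases in CA/TG words around the summit, with the number of members under each bar. Medians stay at 5 or 6 lists up to 30% and stand at 15 to 20 beyond it, and the RAD21 share climbs from 14.4% to 98.9%.

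The libraries with few peaks at the other members showed this most. In LLC ID, 79.6% and 86.9% of CA/TG-rich members had a peak in replicates 1 and 2, against 0.997% and 1.54% of the other members. In LLC D the values were 62.6% and 90.4% against 0.541% and 1.51%. In mock-treated CTCF ID cells they were 72.9% and 70.7% against 1.54% and 1.34%, although the transgene there is CTCF. LCL ID went the other way, with 18.4% and 11.1% of CA/TG-rich members against 43.7% of the others in both replicates, as did replicate 2 of CTCF D, with 40.6% against 50.1% (replicate 1 had 65.7% against 30.6%). RAD21 replicates disagreed widely. The list of replicate 1 of CTCFL D held 20467 regions and overlapped 73.5% of CA/TG-rich members, and that of replicate 2 held 238 regions and overlapped 0.138%. The IgG libraries of the series were not analysed here, and whether these peaks come from the tagged protein was not tested.

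**Figure D2:**
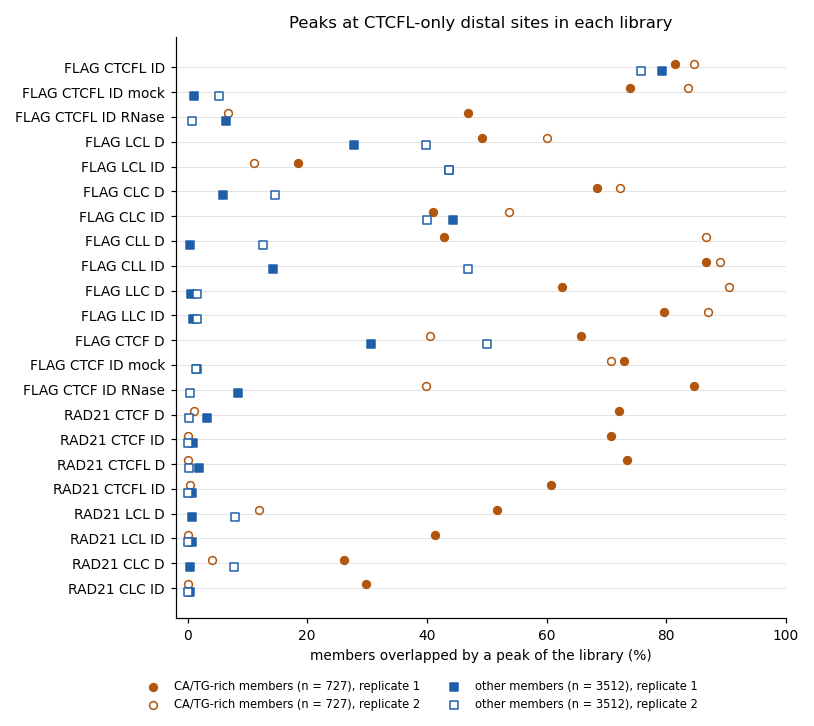
Share of CA/TG-rich members (circles) and other members (squares) overlapped by a peak in each replicate of each library that the rule did not use, replicate 1 filled and replicate 2 open. Circles lie far right of squares in the mock, CLC D, CLL and LLC libraries and in replicate 1 of RAD21, and left of them in LCL ID.

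With endogenous CTCF degraded, 70.1% of members had a CTCFL ID site, though this share depended on the replicates behind the rule. A CTCFL ID peak lay at 79.7% of members in replicate 1 and 77.3% in replicate 2, and 2970 had a CTCFL ID site with both replicates. With replicate 1 alone in the rule, 32.7% of 9695 members were retained, and with replicate 2 alone 64.7% of 4952. A further 699 had a peak in 1 replicate alone and 560 in neither, and a few had peaks in both that did not merge. The share with a site was 95.4% at shared distal sites and 68.5% at CTCFL-only promoter sites. With 2 replicates a group, an exact permutation test could not go below a two-sided p of 0.333. Among the members, CA/TG-rich and other ones had similar shares, 73.9% and 69.3%.

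The share of members with a CTCFL ID site rose with the strength of the site in CTCFL D. D and ID are separate libraries, so no site was followed over time. The ranking used values that chose the members, so the trend is a description. When the other members were ranked by the weaker replicate of CTCFL D into 4 groups of like size, 40.8%, 57.1%, 80.8% and 98.3% had a CTCFL ID site from the weakest to the strongest group. Shared distal sites of like strength, which the rule also required to have a CTCF ID site, had a higher share. The group with a median −log10 q of 8.44 had 97.4%, while the other members with a median of 8.03 had 80.8%. At a median near 15 the shares were 99.9% and 98.3%. In peaks from a population of cells, occupation of fewer cells and weaker occupation of each cell cannot be told apart.

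**Figure D3:**
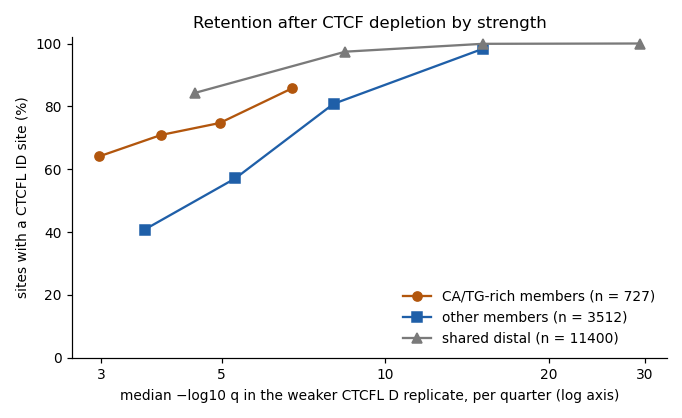
Share of sites with a CTCFL ID site in both replicates, against the median −log10 q of the weaker CTCFL D replicate (log axis), for 4 strength groups each of CA/TG-rich members, other members and shared distal sites. The other members climb from 40.8% to 98.3%, below the shared distal sites at like strength, and the CA/TG-rich members go from 64.1% to 85.7%.

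Permeabilised cells gave a different picture for the same protein and the same doses of IAA and Dox. These libraries are labelled 48 h and those of CTCFL ID 24 h, so that permeabilisation and labelled time cannot be told apart. In mock-treated CTCFL ID cells, 1.08% and 5.21% of the other members had a peak, and in RNase A-treated cells 6.35% and 0.74%. At CA/TG-rich members the mock libraries had 74.0% and 83.6%, and the RNase A libraries 46.9% and 6.74%. Shared distal sites had 21.1% and 45% in mock. The mock lists held 8918 and 14347 regions in all, against 31149 and 29660 in CTCFL ID. Neither mock nor RNase replicates were close enough to place one above the other at the other members, where their ranges overlapped.

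CTCF was not wholly absent from the members. The rule asked that no CTCF ID site with both replicates touch a member, yet 23.8% and 4.51% had a peak in a single CTCF ID replicate. At CA/TG-rich members these shares were 28.1% and 22.1% in replicates 1 and 2, and at the other members 22.9% and 0.854%. In CTCF D, where endogenous CTCF was present, 36.6% and 48.5% of members had a FLAG peak, and 29.4% had a site, against 98.1% of shared distal sites. The share with a CTCF D site was 30.1% at CA/TG-rich members and 29.3% at the others. Of the 3512 members outside CA/TG repeats, 1939 had a peak in at least 1 of the 8 CTCF lists and 1573 (37.1% of all members) had none. The members with no CTCF peak were somewhat weaker, at a median −log10 q of 9.90 and 6.06, against 12.4 and 7.38.

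The core consensus was rarer at members than at shared distal sites, and more frequent than in windows of the genome. It lay within 50 bp of the summit at 15.7% of members, 39.9% of shared distal sites, 9.55% of CTCFL-only promoter sites and 1.36% of 506136 windows of the same length on chromosome 19. Among the other members it was present at 13.8% of those with no CTCF peak and 22.6% of those with some, and among CA/TG-rich members at 1.10%. The share of members with the core was 4.77% at 1 mismatch and 32.9% at 3, 7.93% within 25 bp and 39.6% within 250 bp, 9.18% with replicate 1 alone in the rule, and 24.7% when CTCF sites counted as shared only above an overlap of 66%. A perfect match was found at 0.377% of members and 6.53% of shared distal sites. The word AGGGGGC, which overlaps the consensus and was searched on both strands within 30 bp after the sequences were seen, was found at 7.26% of the other members, 8.21% of shared distal sites, 4.91% of CTCFL-only promoter sites and 0.496% of windows of chromosome 19. Among sites without the core consensus, the shares were 4.41%, 1.93% and 3.66% in the same order of sites. A match describes letters and not contact with a protein. Other members with the core were retained in CTCFL ID at 79.0%, and those without it at 67.1%.

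LCL and CLC sites overlapped in part among the members. An LCL ID site, made with the fingers of CTCF, lay at 33.1% of members, and a CLC ID site, made with the fingers of CTCFL, at 33.4%. Over all 22294 CTCFL D sites, members included, these shares were 75.7% and 65.3%, and at CTCFL-only promoter sites 59.0% and 25.9%. The LCL ID lists were longer, at 41363 and 42362 regions, than those of CLC ID, at 23899 and 21220. With replicate 1 alone in the rule, the shares were 17.9% and 14%, and with CTCF D in place of CTCF ID 22% and 29.2%. Of the 4239, 649 had both (15.3%), 756 LCL alone (17.8%), 767 CLC alone (18.1%) and 2067 neither (48.8%). Over all CTCFL D sites the shares were 58.4%, 17.3%, 6.88% and 17.4% in the same order. Of the other members with no CTCF peak, 11.4% had an LCL ID site and 21.0% a CLC ID site. Of those with some CTCF peak, 60.1% had an LCL ID site and 45% a CLC ID site. The replicates did not overlap in either case, with 14.9% and 16% for LCL ID against 29.5% and 27.4% for CLC ID where no CTCF was seen, and 67.1% and 66.2% against 56.3% and 50.4% where it was. The split by CTCF peaks was made on values, so the order is a description.

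**Figure D4:**
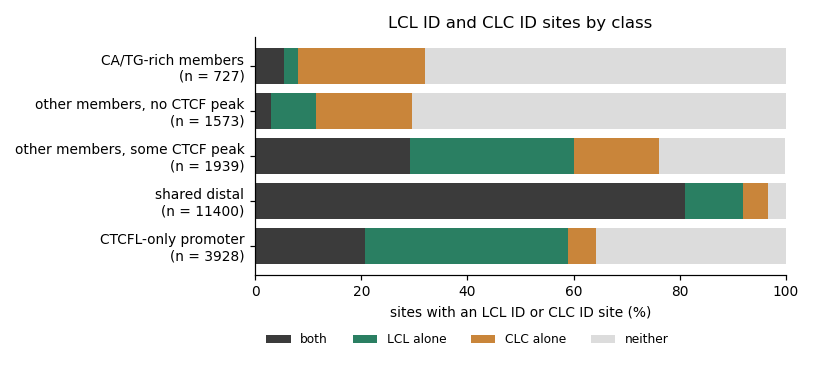
Share of sites in 5 classes that had a site in both LCL ID and CLC ID, in LCL ID alone, in CLC ID alone or in neither. CLC alone outweighs LCL alone at members with no CTCF peak (18.1% against 8.52%), and LCL alone outweighs CLC alone at members with some (31% against 15.9%) and at CTCFL-only promoter sites (38.3% against 5.14%).

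The chimeras that keep 1 end of CTCFL beside its fingers differed from each other. CLL ID peaks lay at 14.3% and 46.8% of the other members, a wide spread between replicates, and LLC ID peaks at 0.997% and 1.54%. At shared distal sites CLL ID had 65.8% and 90.2%, and LLC ID 14.9% and 25.5%. The LLC ID lists held 9441 and 12519 regions, and those of CLL ID 18798 and 27051. Of the LLC ID sites at members, almost all were at CA/TG-rich ones, since the share with a site was 13.8% over all members, 76.9% over CA/TG-rich ones and 0.683% over the others. None of the 4 chimeras had an ID site at 1578 members (37.2%), and 28 members (0.661%) had a site of all 4. These shares were 14.5% and 7.54% over all CTCFL D sites, and 2.18% and 10.9% at shared distal sites. At CTCFL-only promoter sites they were 35.2% and 0.153%, close to the members.

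More members had a chimera peak when endogenous CTCF was depleted, and the ID lists of CLC and CLL were also longer. CLC lists held 9867 and 13583 regions in D against 23899 and 21220 in ID. CLL lists held 2189 and 14593 in D against 18798 and 27051 in ID. The part of list length in the rise was not tested. Averaged over the 4 chimeras, ID exceeded D by 12.27 percentage points (exact permutation test over 16 libraries with D and ID exchanged within each line, two-sided p = 0.0355, smallest possible 0.00154), and ID was higher in 4 of 4 lines. CLC went from 16.7% and 24.5% in D to 43.7% and 42.5% in ID, and CLL from 7.62% and 25.3% to 26.7% and 54%, without overlap between the groups. LCL, at 31.6% and 43.3% against 39.4% and 38.1%, and LLC, at 11.2% and 16.7% against 14.5% and 16.2%, overlapped. Shared distal sites rose by 31.12 points (p = 0.00463 by the same exact test), 18.85 points more than the members. The rule split these classes by CTCF ID sites, so that difference is a description. The call for the members was lost when LCL D replicate 1 (p = 0.0787 by the exact permutation test), CLL D replicate 1 (0.0972), CLL D replicate 2 (0.0525), CLL ID replicate 2 (0.0802) or LLC D replicate 1 (0.0525) was left out. Taking the 2189 top-ranked regions of each list, the whole length of CLL D replicate 1, reversed it, to −2.59 points (p = 0.00154 by the exact permutation test).

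The CA/TG-rich members moved unlike the others in LCL and CLC, and in the same direction in CLL and LLC. Without CA/TG-rich members the mean difference was 16.52 points, with LCL at 27.9% and 39.8% in D and 43.7% in both ID replicates, and CLC at 5.92% and 14.7% in D and 44.3% and 40.1% in ID. The CA/TG-rich members moved by −8.25 points on average, over lines of opposite sign. In LCL they went from 49.2% and 60.1% in D to 18.4% and 11.1% in ID, and in CLC from 68.5% and 72.2% to 41% and 53.8%. In CLL they went from 42.8% and 86.7% to 86.7% and 88.9%, and in LLC from 62.6% and 90.4% to 79.6% and 86.9%. The D and ID libraries overlapped in CLL and LLC and did not in LCL and CLC, and none of these differences was tested.

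Cohesin was seldom detected at members outside CA/TG repeats. Between 0.0854% and 7.86% of the other members had a RAD21 peak in any of the 16 lists, which held 163 to 22765 regions. In the 4 lines, ID minus D was −2.78 points over all members (exact permutation test, two-sided p = 0.349). It was −19.65 points at shared distal sites (p = 0.0201 by the exact permutation test), a difference of −16.86 points. The rule split these classes by CTCF ID sites, so that difference is a description. In CTCF D the mean share was 7.75% at members and 36.6% at shared distal sites, so members had less to lose. Exchanging D and ID only within same-numbered replicates gave p = 0.0469 for the members by the exact permutation test. Replicate 1 of CTCFL D, the longer list, had RAD21 at 1.99% of the other members and at 55.9% of shared distal sites. In LCL D replicate 2 and CLC D replicate 2, 7.86% and 7.80% of the other members had a peak.

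Members were found at domain edges less often than shared distal sites by 1 of the 2 domain callers. In untreated CTCFL-line cells, bins of 40 kb at the edges of domains called by HiCratio were 13.5% of all bins and held 20.2% of members and 29.8% of shared distal sites. With Dox the shares were 19.3% and 29%, with IAA 16.1% and 20.6%, and with both 15.0% and 19.8%. By the Crane caller, members and shared distal sites had 20.4% and 19.5% in untreated cells, where 18.6% of bins were edges. Each caller gave 1 domain list per condition, so these shares have no replicate error. The 2 lists of a condition came under different Hi-C sample labels, so caller and sample cannot be told apart.

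For RNA, each member was linked to the protein-coding gene with the nearest start, which gave 3236 genes, of which 2105 had no CTCFL D site within 1 kb of any of their starts. Values are the deposited counts per gene scaled to a common library size. The CTCFL line has 3 libraries in U, I and D and 2 in ID. Reads recovered from the values ran from 6847072 (D replicate 3) to 43154741 (D replicate 2). As a check of the labels, Ctcfl stood at 193, 225 and 206 in U and at 7764, 9398 and 7570 in D. ES cell markers (Pou5f1, Nanog, Sox2, Zfp42 and Esrrb) summed to 88068 to 94402 in U and 64927 to 68329 in D, and fibroblast markers (Col1a1, Col3a1 and Thy1) to 804 to 997 in U and 1142 to 1418 in D. Primitive endoderm markers went from 3222 to 3572 in U to 2298 to 2412 in D, mesoderm markers from 191 to 279 to 330 to 424, and neural markers from 363 to 398 to 147 to 195, with 1 neural gene (Sox1) and 1 fibroblast gene (Col1a1) called. Trophoblast markers overlapped, at 25.5 to 75.4 and 55.0 to 71.2, with Elf5 at 0 in 2 U libraries. Genes within a sum could differ. By mean, Col1a1 went from 252 in U to 751 in D, and Thy1 from 664 to 538. Eomes went from 175 to 298, and T from 22.8 to 10.4. Nanog went from 35328 to 19053, and Esrrb from 16658 to 16091. The part of these shifts in the results below was not tested.

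Among genes linked to members and without a CTCFL site at a start, falls outnumbered rises in ID against I. After Dox, 39 of 1668 tested rose (2.34%) and 42 fell (2.52%) by limma (adjusted p under 0.01 over all genes and a log2 fold change above 1), with a median log2 fold change of −0.03. Over all 16840 genes tested, 3.76% rose and 2.14% fell, and genes that were neither linked nor bound at a start had 2.01% and 2.59%. Of linked genes that also had a CTCFL D site at a start, 8.21% of 1072 rose, and of unlinked genes with such a site 6.75%, differences that were not tested. With endogenous CTCF degraded (ID against I), 31 of the 1668 rose (1.86%) and 111 fell (6.65%), with a median of −0.16, beside 3.94% and 3.89% over all genes and 1.53% and 4.10% of genes neither linked nor bound. In the CTCF line, 5 of 2697 linked genes rose and 6 fell after Dox, where 0.216% and 0.239% of all genes did. That count of 11 was 7 without D replicate 1 or 3 and 2 without U replicate 2. Linked only to CA/TG-rich members, 2 of 193 rose and 3 fell in the CTCFL line.

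Adamts2, Pax9 and Krt78 were among the linked genes with the largest rises. Adamts2, a procollagen-processing protease, went from 45.8, 44.5 and 61.5 in U to 442, 505 and 386 in D (log2 fold change 3.12, SE 0.33, adjusted p = 2.82e-07 from limma) and rose again in ID against I (2.75, adjusted p = 4.54e-06 from limma). Its strongest member lay 80552 bp from the start, at chr11:50521196-50521867. Pax9, a paired-box factor of pharyngeal and tooth development, went from 4.04, 3.95 and 4.64 to 60.2, 17.7 and 71.2 (3.07, adjusted p = 0.000636 from limma), and was at 0.29 in ID against I (adjusted p = 0.783 from limma). Ebf3, an early B-cell factor relative, Runx2, the bone master regulator, and Foxc1, a forkhead factor, rose by 2.96, 2.91 and 2.24 on the log2 scale in D against U. Of these, Ebf3 also passed in ID against I, at 1.94. The call for Runx2 was lost by the same limma test without any 1 of D replicates 1, 2 and 3 and U replicates 1 and 3, at log2 fold changes of 2.78 to 3.01, and that for Ebf3 in ID against I without either ID replicate, at 2.15 and 1.73. With no filter on low values the call for Runx2 was lost too. Cdsn (corneodesmosin) rose by 2.40 and Krt78 (a keratin) by 3.14, and both passed in ID against I, at 2.03 and 2.88. The second call, in ID against I, was lost for Krt78 with no filter on low values or with the replicate block (2.77). The second call was lost for Cdsn without ID replicate 1 (1.71) and for Krt78 without either ID replicate (2.99 and 2.77) or without I replicate 1 (3.00) or 3 (2.48).

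B3gat2, a glucuronyltransferase of the HNK-1 epitope, had the largest rise, and both of its linked members were CA/TG-rich. It stood at 4.04, 1.98 and 3.48 in U and at 138, 160 and 116 in D (log2 fold change 5.08, SE 0.62, adjusted p = 1.78e-06 from limma), and its members lay from 14885 bp upstream of its start. In the CTCF line it already stood at 102 and 66.3 in U and at 111, 69.0 and 110 in D. The levels in the lines thus lay apart before Dox, which was not tested. Dusp4, a MAP kinase phosphatase, rose by 2.04 in both comparisons, Tex101, a germ cell surface protein, by 2.02 and 1.86, S1pr5, a sphingosine phosphate receptor, by 2.96 in D, and Tmem88, a membrane protein that inhibits Wnt signalling, by 2.22 in D. The call for S1pr5 was lost without D replicate 2 (2.88), D replicate 3 (2.94) or U replicate 1 (2.84), and that for Tmem88 without D replicate 1 (2.01), D replicate 3 (2.05), U replicate 1 (1.63) or U replicate 2 (2.34). Both calls were also lost with no filter on low values, and that for Tmem88 with edgeR (2.11) or the 2 groups alone in the fit.

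Igf1, Nanos3 and Grin1 were among the linked genes with the largest falls. Igf1, a growth factor, went from 117, 148 and 121 in U to 18.8, 15.4 and 7.49 in D (log2 fold change −3.20, SE 0.42, adjusted p = 3.55e-06 from limma), with a member in its intron 66308 bp from the start, and fell in ID against I (−2.39). Igf1 also fell in the CTCF line after Dox, by 1.19 on the log2 scale (adjusted p = 0.00948 from limma), a call lost without D replicate 2 (−0.97), D replicate 3 (−1.15), U replicate 1 (−1.0) or U replicate 2 (−1.37). That call for Igf1 in the CTCF line was also lost with no filter on low values or with the replicate block. Grin1, an NMDA receptor subunit, went from 360, 374 and 308 to 77, 66.2 and 67.4 (−2.29), and fell in ID against I (−1.82). In the CTCF line after Dox it went from 1415 and 1536 to 740, 790 and 859 (−0.89, adjusted p = 0.000369 from limma), below the fold limit. Prmt8, a brain arginine methyltransferase, went from 859, 837 and 917 to 197, 233 and 195 (−2.06), and fell in ID against I (−2.73). Nanos3, an RNA-binding protein of germ cells, was at −3.02, from 28.3, 14.8 and 11.6 to 9.87, 0 and 0, near the floor. Pramel7 was at −2.16, Enpp3, an ectonucleotidase, at −2.07 and Arhgap31, a GTPase-activating protein, at −1.94. All of these fell in D against U by the same test, and the last 4 were not called in ID against I, where they ranged from −0.52 (Nanos3) to −1.25 (Enpp3). The call for Nanos3 was lost when any 1 U library, D replicate 2 or D replicate 3 was left out (−2.45 to −3.28). It was also lost with edgeR (−2.26), a pseudocount of 5 (−1.63), the replicate block, no filter on low values or the 2 groups alone in the fit. That for Arhgap31 was lost without D replicate 3 (−1.22) or U replicate 2 (−1.69), or with no filter on low values.

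**Figure D5:**
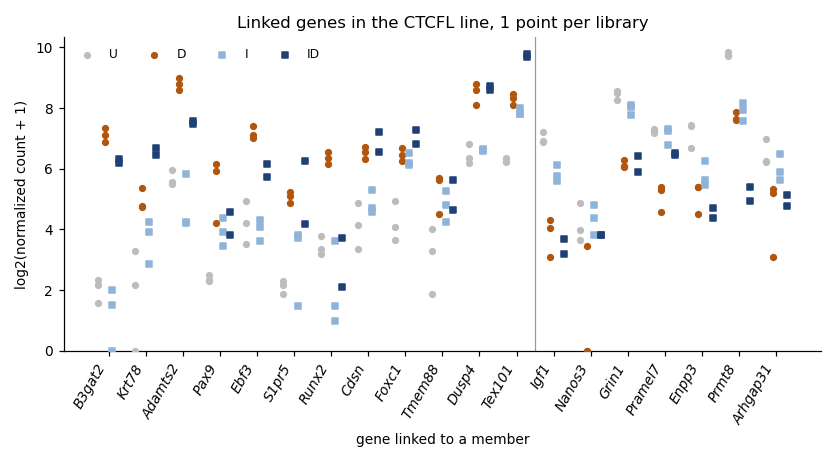
Log2(normalized count + 1) of linked genes with the largest rises (left of the line) and falls (right) in CTCFL D against U, among linked genes with no CTCFL D site at a start, with 1 point per library in U, D, I and ID. U and D do not overlap in any gene shown, as the choice of genes required. In some genes, such as Pax9, Runx2 and Tmem88, I and ID overlap.

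Of the genes the study itself names, which were chosen on these samples and so are no independent evidence of direction, 7 were linked and 6 of these rose after Dox. Linked or not, 15 of the 26 study-named genes tested rose, beside 3.76% of all genes tested. Gal3st1, which holds the second strongest member by the weaker replicate in its intron, went from 67.3, 65.2 and 51.1 to 151, 135 and 120 (log2 fold change 1.14, SE 0.24, adjusted p = 0.000763 from limma), and rose in ID against I (1.73). Magee1, a melanoma antigen family member, rose by 1.06, with its member 1012 bp from the start and in an exon, and was below the limits without D replicate 1 (0.94), D replicate 2 (1.06) or U replicate 2 (0.96). Prkcb, Gadd45g and Steap1 rose by 1.62, 1.72 and 1.57, and Bhlhe40 was at 0.30. In ID against I, Prkcb was called at 1.06, but not without ID replicate 1 (1.17) or 2 (0.95). This call for Prkcb was also lost with a pseudocount of 5 (1.00) or with the 2 groups alone in the fit. Prkcb, Steap1 and Bhlhe40 also had a CTCFL D site at a start.

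Of signalling genes, 5 linked Notch genes (Jag1, Notch1, Notch4, Hes1 and Hey1) had a median log2 fold change of 0.64 by limma, below the limit of 1. Jag1, a Notch ligand with a member in its intron 1931 bp from the start, went from 403, 337 and 437 in U to 764, 775 and 644 in D (0.89, adjusted p = 5.06e-05 from limma), without overlap, and stood at −0.05 in ID against I. The 6 linked TGF-beta and Nodal genes ran from −0.54 (Smad7, an inhibitor of the pathway) to 0.74 (Id3, a target). Of the linked germline genes, Tex14, needed for bridges between germ cells, was at −0.76, and Spo11, which makes meiotic breaks, overlapped between U (5.39, 2.96 and 0) and D (3.95, 11.8 and 18.7). Of 8 linked pluripotency genes, Prdm14, a germ cell and ES cell regulator, fell after Dox (1357, 1341 and 1457 to 619, 597 and 640, log2 fold change −1.16, adjusted p = 8.24e-09 from limma), and Prdm14 and Tfcp2l1 fell in ID against I, at −1.73 and −1.06. Tfcp2l1 was below the limit without I replicate 1 (−0.96) or 2 (−0.98). Pou5f1 was at −0.16 after Dox (adjusted p = 0.0872 from limma).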

How the data were processed

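FLAG and RAD21 ChIP-seq peak lists, Hi-C domain lists and RNA-seq values of mouse ES cells were used. The authors mapped the ChIP-seq libraries on GRCm38 (Bowtie2), reduced them to unique, deduplicated alignments, and ran MACS on each library by itself (q of 0.05, broad mode for RAD21). Each peak carries its −log10 q and, in FLAG lists, its fold enrichment, as deposited. The methods and the deposited files differ on the MACS version, and the control library behind q and fold is not given in the sources used here. The lowest −log10 q was about 2 in 24 FLAG lists and 1.3 in the 8 CLL and LLC lists. Trim Galore 0.4.4, SAMtools 1.3, HTSeq and deepTools stand in the submitters' processing notes. As deposited, the RNA signal values are counts per gene after STAR alignment, scaled by the authors with a size factor for each library. The read depth of the peak lists is not given in the sources used here, and IgG libraries were not analysed here.

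Sites, classes and sequence features were computed with Python 3.11.15, pandas 2.3.3 and numpy 2.4.6 from the GENCODE GRCm38 annotation and genome, and overlap meant at least 1 bp. Shares over libraries were compared by exact permutation tests that exchanged D and ID within each line. RNA was fitted with limma 3.58.1 (R 4.3.3) on log2(value + 1), 1 fit per line, for genes with a mean of at least 10, with Benjamini-Hochberg adjustment over all genes tested and a call at adjusted p under 0.01 and an absolute log2 fold change above 1. Fold changes on this scale understate those of low genes. Whole reads were recovered from 100% of values (tolerance 0.1 reads) except in 2 libraries, CTCFL I and ID replicate 2, whose step is near 1. These 2 were left out of the edgeR 4.0.16 fit, so that the ID arm held 1 library, assumed to vary like the other groups. It called 606 genes up and 327 down for CTCFL D against U, 511 and 585 for ID against I, and 32 and 40 for CTCF D against U. The steps were tested on simulated data. Named sites were the 10 strongest by the weaker replicate and those nearest the 1 kb limit. Named genes were the 12 largest rises and 8 largest falls among linked genes with no CTCFL D site at a start and no overlap between U and D, and the linked genes of the lists, and some named items are not reported here. Members and lists were chosen with earlier results of these data known. Alternatives varied the rule, the overlap, the peak threshold, the replicates, the RNA filter, pseudocount and tool.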

Additional observations from a re-analysis of the deposited data

Results flagged for a closer look

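For 2 of 48 named linked genes tested, the effect of Dox in the CTCFL line differed with and without IAA by limma's interaction term, beside 457 of 16840 genes (2.71%) over the whole table. Gadd45g, a growth arrest gene with a member 55984 bp from its start, was at 1.72 on the log2 scale without IAA and at −0.48 with it, a difference of −2.19 (SE 0.17, adjusted p = 2.29e-08 from limma). Steap1, a metalloreductase gene with a member 96683 bp from its start, was at 1.57 without IAA and 2.73 with it, a difference of 1.16 (SE 0.21, adjusted p = 0.000497 from limma).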

How the results depend on the processing

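Peak lists carry no read depth, so a missing peak at a weak member may be a matter of depth. Retention in CTCFL ID, 70.1% of members, was 52.8% when 66% of both regions had to overlap, 53.6% when the other library's peak had to reach a −log10 q of 5, and 83.6% when the rule itself required 5. Under these same settings LCL ID sites (33.1%) lay at 19.5%, 23.8% and 41.7%, CLC ID (33.4%) at 21.6%, 22.9% and 45.4%, CLL ID (25.5%) at 14.2%, 14.2% and 28.6%, LLC ID (13.8%) at 10.6%, 7.12% and 10.6%, and CTCF D (29.4%) at 18.3%, 20.8% and 38.3%. Counting CTCF sites as shared only above an overlap of 66% gave 7396 members, of which 79.7% were retained, with LCL ID at 57.9%, CLC ID at 53.6%, CLL ID at 38.6%, LLC ID at 12.4% and CTCF D at 58.5%. With CTCF D in place of CTCF ID in the rule these were 68.0%, 22.0%, 29.2%, 25.1%, 15.5% and, by construction, 0.0%. LCL ID and LLC ID were 31.4% and 15.0% with a window of 3 kb, and LCL ID 34% with protein-coding starts and 34.3% with the GENCODE basic set. Without CA/TG-rich members, an alternative chosen after seeing the data like the basic set, LCL ID was 38.3%, CLL ID 13.9% and LLC ID 0.683%. With the top-ranked regions alone, retention was 0.236%, LCL ID 0.0472%, CLC ID 0.118%, CLL ID 0.0944%, LLC ID 2.34% and CTCF D 0.0472%, from 2189 regions a list.

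With replicate 2 or replicate 1 alone in the rule, members numbered 4952 and 9695, and the shares were 64.7% and 32.7% for retention, 33.4% and 17.9% for LCL ID, 31.6% and 14% for CLC ID, 24% and 17.1% for CLL ID, 12.6% and 13.2% for LLC ID, and 29.3% and 12.8% for CTCF D. With the rule kept and 1 replicate of the other library left out, the ranges were 77.3% to 79.7%, 38.1% to 39.4%, 42.5% to 43.7%, 26.7% to 54%, 14.5% to 16.2% and 36.6% to 48.5% in the same order. The chimera difference of 12.27 points ran from 8.86 to 15.68 when each library was left out, and was −2.59 with top-ranked regions. The RAD21 difference ran from −4.61 to −0.95, and was 0.00 with the 163 top-ranked regions. The causes were not tested.

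The replicate numbers did not pair the RNA libraries, with correlations of deviations of 0.012 to 0.0648 in the CTCFL line and 0.0104 to 0.162 in the CTCF line. With the replicate block the RAD21 difference stayed −2.78 points, with p = 0.0469 by the exact permutation test, and the chimera difference had p = 0.0469. The replicate block gave 5 called linked genes in the CTCF line against 11, and 181 against 190 and 278 against 289 in the CTCFL line. The CTCF-line count was 2 to 12 when each library was left out. Linking by the gene that contains the site gave 121 against 190. Over all single genes and descriptions, 479 alternatives kept direction and call, 57 lost the call, 14 moved a described value (the share with the core consensus or the median distance to a start) and none reversed.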
